A study of Mus musculus with 89 samples.

Results

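A set of 9 genes of epithelial cell-cell adhesion was followed through mouse jejunum: the adherens junction genes Cdh1, Cdh17, Ctnnb1 and Ctnnd1, the plaque gene Jup, the desmosome genes Dsp, Dsg2 and Dsc2, and Epcam. The members, and the lists of other adhesion genes used below, were chosen by name with earlier results of these data known. Their counts set against all genes are therefore descriptive. All 9 members were among the 21817 genes shared by a table of small cell clumps (27538 genes) and a table of single cells (23379 genes). In ClumpSeq, the epithelium is dissociated only in part, with EDTA and no enzyme, so that small groups of neighbouring cells stay attached and are sorted and sequenced together by MARS-seq, which counts molecules from their 3′ ends with unique molecular identifiers (UMIs). The source tissue was the jejunum of male C57BL/6 mice on regular chow, 3 months of age, except for 3 single-cell plates of mouse 2, which came at 4 months.

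Clumps were sorted by Hoechst DNA content. Clumps with the DNA content of a pair of cells (4n) came from mice 1 to 5, on 4, 10, 8, 3 and 2 plates. Clumps above 4n came from mice 1, 4 and 5, on 3, 6 and 5 plates. Single cells carried mouse numbers of their own, 1 to 4, on plates labelled EpcamLow_Cd24high and Epcam_Cd24low (mouse 1), CD24 and Epcam (mouse 2), CD45Epcam (mouse 3), CD54Epcam (mouse 4), onlyEpcam (mice 3 and 4) or with no gate named (mice 1 and 2). The labels do not say which of these surface markers were selected for and which against. The study's methods describe a gate negative for CD45 and positive for Epcam, with CD24 added to enrich enteroendocrine cells. For tuft cells they describe a gate positive for Epcam and CD24 only. They do not tie these gates to plates. No group carried a mutation or a treatment, and all groups shared the strain, the sex and the tissue.

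Neighbouring enterocytes are held together below their tight junctions by a belt of adherens junctions and by spot-like desmosomes. In the adherens junction, E-cadherin (Cdh1) binds its like on the next cell and is anchored to actin through β-catenin (Ctnnb1), while p120-catenin (Ctnnd1) keeps the cadherin at the membrane. In the desmosome, desmoglein 2 (Dsg2) and desmocollin 2 (Dsc2) bind across the gap and are tied to keratin filaments by plakoglobin (Jup) and desmoplakin (Dsp). Cdh17, the liver-intestine cadherin, is a cadherin of the lateral membrane that needs no catenin, and Epcam is an adhesion molecule spread over the basolateral membrane of epithelial cells that is also the usual handle for sorting them.

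Cdh17 was also a target of the study's fluorescent in situ hybridisation, and its probes show which stretch of the transcript can be seen under the microscope. All 47 designed probes, each 20 bases long and complementary to the mRNA, matched the GENCODE transcript of 3462 bases and 18 exons, all within the coding sequence. Probes 1, 24 and 47 are shown, 5′ to 3′, with the bases of the genome that they match, on the strand opposite the gene.
probe 1, exon 2, chr4:11767766-11767785: acacaggaagtgaagctggg
probe 24, exon 10, chr4:11795511-11795530: ttagcttcgtccatatcatg
probe 47, exon 15, chr4:11810444-11810463: gaaacttcccagtcactttg
Probe 1 lies 3275 bases and probe 47 lies 1152 bases from the 3′ end of the transcript, the end from which MARS-seq counts molecules.

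Of the 9 genes, 5 had an entry in the RefSeq promoter table (GRCm38.p6), and the 250 bases before the start are shown for Epcam and Dsp, the members with the largest fitted rise from crypt to villus tip, described next. Capitals mark the E-box CACCTG, or CAGGTG where it is read on the other strand.
Epcam, chr17:87635729-87635978, plus: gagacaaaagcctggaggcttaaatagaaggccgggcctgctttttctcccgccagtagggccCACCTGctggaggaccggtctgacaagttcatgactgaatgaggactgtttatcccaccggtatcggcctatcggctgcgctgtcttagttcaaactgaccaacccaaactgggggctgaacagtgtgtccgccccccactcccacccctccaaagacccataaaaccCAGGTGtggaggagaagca
Dsp, chr13:38151044-38151293, plus: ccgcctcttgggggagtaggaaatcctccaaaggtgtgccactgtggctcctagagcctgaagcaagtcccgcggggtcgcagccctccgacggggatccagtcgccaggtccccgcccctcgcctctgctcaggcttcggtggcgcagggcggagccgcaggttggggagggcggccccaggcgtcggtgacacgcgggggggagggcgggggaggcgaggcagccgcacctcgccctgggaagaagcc
On both strands of these windows 3 motifs were searched, CACCTG (found in 17.2% of 32851 promoters), AACCNGTT (1.79%) and CAAAGTCCA (0.384%). The Epcam window held 2 E-boxes, 187 and 19 bases before the start, and the Dsp window held none of the 3 motifs. A match is only a match of letters.

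On the mouse genome GRCm38, the genes lie at chr17:87635979-87651129 (Epcam, plus strand), chr8:106603351-106670246 (Cdh1, plus), chr4:11758147-11817895 (Cdh17, plus), chr9:120929216-120960507 (Ctnnb1, plus), chr2:84600071-84650765 (Ctnnd1, minus), chr11:100368958-100397763 (Jup, minus), chr13:38151294-38198577 (Dsp, plus), chr18:20558074-20604521 (Dsg2, plus) and chr18:20030633-20059554 (Dsc2, minus). Ctnnb1 and Ctnnd1 overlap genes annotated on their own strand, Mir7090 and Gm28635, with which reads may be shared, and Dsp and Dsg2 overlap only genes on the opposite strand.

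Each clump was assigned to crypt, mid-villus or tip by landmark genes of enterocytes, none of which is a member. The 30 crypt landmarks were mostly ribosomal protein genes, such as Rpl3 and Rps6. The 10 mid-villus landmarks included Fabp1 and Lct, and the 30 tip landmarks included Ada, Atf3 and Malat1. A crypt zone here thus means a high share of mostly ribosomal protein RNA among the landmarks. Of 6004 clumps that passed the filters, 5883 received a zone (3251 crypt, 1821 mid-villus, 811 tip), and the UMIs of all clumps of a mouse in a zone were summed. Clumps above 4n made up 2152 of the crypt clumps, 379 of the mid-villus clumps and 114 of the tip clumps. The median depth per clump was 4878, 1811 and 1346 UMIs, so zone was tied to clump size and depth in these sums. Levels are given as CPM, the UMIs of a gene scaled to 1000000 UMIs of its sum. The sums held 346613 to 18868631 UMIs in the crypt, 197189 to 2764557 in the mid-villus and 76801 to 757892 in the tip, so tip values of rare transcripts carry the largest counting error. Summed enterocyte markers ran from 3309 to 10241 CPM in the crypt and from 52877 to 87315 at the tip, and summed Paneth markers from 73.1 to 17723 and from 98.0 to 1232, so the crypt sums of the mice differed in Paneth RNA. Without clumps rich in secretory markers (5426 clumps), the same number of members rose from crypt to tip, 8, but fewer than in the main fit were called from crypt to mid-villus. The 10 immune markers summed to 219 CPM or less in every clump sum, and in some sums all 10 were at 0. A clump is a bulk sample, in which fewer cells of a type and less RNA per cell cannot be told apart.

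Together, the 9 genes took 1827 ± 348 CPM at the crypt end, 2492 ± 650 halfway up and 4472 ± 1045 at the tip end (mean ± SD, n = 5 mice each). In all, 8 of the 9 rose from crypt to tip in edgeR's quasi-likelihood test across all genes (Benjamini-Hochberg adjusted p under 0.05), with Ctnnb1 the exception, against 24.5% of the 6984 genes tested that were higher at the tip. The median fitted log2 change was 1.52 for the members and -0.07 for all genes tested. From crypt to mid-villus 2 members rose, Cdh17 and Epcam, where 20.2% of all genes did, whereas from mid-villus to tip 6 rose (Epcam, Dsp, Dsg2, Dsc2, Jup and Cdh1), where 6.44% of all genes did. This fit did not pair the zones of a mouse. With mouse as a block all 9 members were called from crypt to tip, 5 from crypt to mid-villus and 6 from mid-villus to tip. Of the 6984 genes, 2066, 2091 and 878 were then higher.

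**Figure D1:**
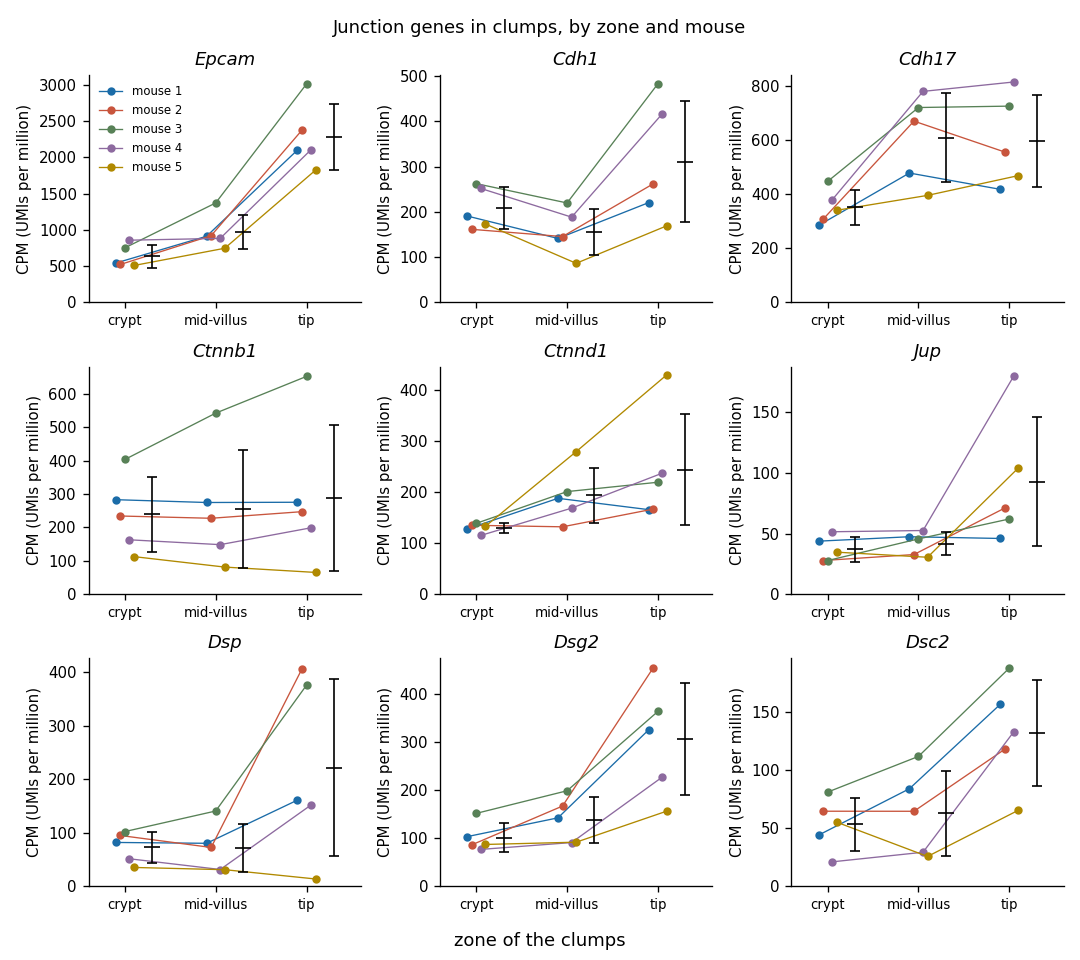
CPM (y axis) of each gene in crypt, mid-villus and tip clumps (x axis), one panel per gene with its own y axis from 0. Points joined by lines are mice 1 to 5, and black bars are the mean ± SD of the 5. Epcam lies above 1800 in every tip sum and below 860 in every crypt sum, while Ctnnb1 keeps the mice in the same order in every zone.

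Cdh1, the cadherin of the adherens junction, rose over the upper villus. In mice 1 to 5 it stood at 191, 161, 262, 252 and 173 CPM in crypt clumps, at 141, 145, 220, 188 and 86.2 in mid-villus clumps and at 221, 262, 483, 417 and 169 in tip clumps. The mid-villus value was the lowest of the 3 zones in all 5 mice, although the groups overlapped. The fitted log2 change was -0.26 ± 0.27 (SE) from crypt to mid-villus, which did not pass (adjusted p = 0.469), 1.18 ± 0.28 from mid-villus to tip (adjusted p = 0.00787) and 0.92 ± 0.27 from crypt to tip (adjusted p = 0.00789). Scaled by total UMIs in place of edgeR's TMM factors, neither rise of Cdh1 passed, at 0.99 from mid-villus to tip (adjusted p = 0.0526) and 0.59 from crypt to tip (adjusted p = 0.146).

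Cdh17 rose over the lower villus. Its values were 285, 307, 447, 379 and 340 CPM in crypt sums, 478, 670, 721, 780 and 396 in mid-villus sums and 418, 556, 726, 815 and 469 in tip sums. Every mouse gained Cdh17 from crypt to mid-villus, by 0.94 ± 0.27 on the fitted log2 scale (adjusted p = 0.00708), and mid-villus and tip values overlapped almost fully. The fitted change from mid-villus to tip was 0.15 ± 0.26 (adjusted p = 0.754), with a 95% interval of -0.37 to 0.67. The call from crypt to mid-villus was lost with DESeq2's size factors (0.63, adjusted p = 0.0594), in pairs alone and without mouse 2 or 4.

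Of the catenins, which work on the inner side of the cadherins, Ctnnd1 rose and Ctnnb1 did not pass. Ctnnb1 stood at 283, 234, 404, 163 and 113 CPM in crypt sums, at 275, 228, 543, 148 and 81.1 in mid-villus sums and at 276, 247, 653, 199 and 65.1 in tip sums. The mice kept their order in all 3 zones, with mouse 3 highest and mouse 5 lowest, and the spread between mice was wider than the difference between zones. The fitted change of Ctnnb1 from crypt to tip was 0.69 ± 0.44 (adjusted p = 0.193), and with mouse as a block it was 0.56 and passed (adjusted p = 0.0237). Ctnnd1 stood between 115 and 139 CPM in all 5 crypt sums and between 165 and 430 in the tip sums, with no overlap. The 430 rests on 33 UMIs in mouse 5, and the fitted change was 1.23 ± 0.34 (adjusted p = 0.00456).

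Jup, which takes part in both kinds of junction, rose over the upper villus. It stood between 27.7 and 51.5 CPM in crypt sums, between 30.4 and 52.5 in mid-villus sums and at 45.9, 71.0, 62.0, 180 and 104 in tip sums. The first pair of zones overlapped almost fully, and the tip exceeded the crypt in all 5 mice, in mouse 1 by a ratio of only 1.05. The fitted change was 0.32 ± 0.31 from crypt to mid-villus (adjusted p = 0.431) and 1.20 ± 0.33 from mid-villus to tip (adjusted p = 0.0195). The latter call of Jup was lost with total UMIs (1.00, adjusted p = 0.0600), with no filter on low counts, in pairs alone and without mouse 2 or 5.

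Dsp, the link of the desmosome to keratin, also passed over the upper villus. It stood at 81.5, 94.5, 102, 50.9 and 34.6 CPM in crypt sums, at 79.9, 72.1, 140, 30.8 and 30.4 in mid-villus sums and at 161, 407, 376, 152 and 13.0 in tip sums. Its tip level exceeded its crypt level in 4 of 5 mice, and the exception, mouse 5, held a single Dsp UMI among 76801. The fitted change of Dsp was 0.18 ± 0.47 from crypt to mid-villus (adjusted p = 0.791) and 1.92 ± 0.49 from mid-villus to tip (adjusted p = 0.012), a call lost without mouse 2 (1.63, adjusted p = 0.0742).

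The desmosomal cadherins Dsg2 and Dsc2 both rose. Dsg2 stood at 103, 85.7, 151, 76.2 and 86.6 CPM in crypt sums, at 142, 167, 199, 90.5 and 91.3 in mid-villus sums and at 326, 456, 364, 228 and 156 in tip sums. Every tip value of Dsg2 lay above every crypt value. Dsc2 stood at 43.7, 64.3, 80.7, 20.7 and 54.8 in the crypt and at 156, 118, 187, 133 and 65.1 at the tip, higher in all 5 mice with 1 tip value inside the crypt range. The fitted change from crypt to tip was 2.02 ± 0.32 for Dsg2 (adjusted p = 2.49e-05) and 1.76 ± 0.38 for Dsc2 (adjusted p = 0.000699). From mid-villus to tip it was 1.38 ± 0.31 for Dsg2 (adjusted p = 0.00608) and 1.27 ± 0.38 for Dsc2 (adjusted p = 0.0291). The latter call of Dsc2 was lost with total UMIs (1.05, adjusted p = 0.0866), with no filter on low counts, after thinning and without mouse 1, 2 or 3, and those of both genes in pairs alone.

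Epcam rose from mid-villus to tip, and its smaller change from crypt to mid-villus passed only under some settings. It stood at 541, 522, 751, 857 and 508 CPM in crypt sums, at 911, 919, 1370, 882 and 745 in mid-villus sums and at 2099, 2373, 3010, 2104 and 1823 in tip sums. The tip was 2.20 to 2.58 times the mid-villus in each of the 5 mice, with no overlap between those zones. The fitted log2 change of Epcam was 0.77 ± 0.27 from crypt to mid-villus (adjusted p = 0.026), 1.43 ± 0.27 from mid-villus to tip (adjusted p = 0.00189) and 2.20 ± 0.28 from crypt to tip (adjusted p = 2.87e-06). The call from crypt to mid-villus was lost with total UMIs (0.60, adjusted p = 0.138), with DESeq2's size factors (0.46, adjusted p = 0.173), with no filter on low counts, in pairs alone and without mouse 1, 2 or 3, and the call from mid-villus to tip in pairs alone. With Ctnnd1 and Dsg2, Epcam was 1 of 3 members whose tip sums all lay above the crypt sums, as did 7.9% of all genes tested.

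**Figure D2:**
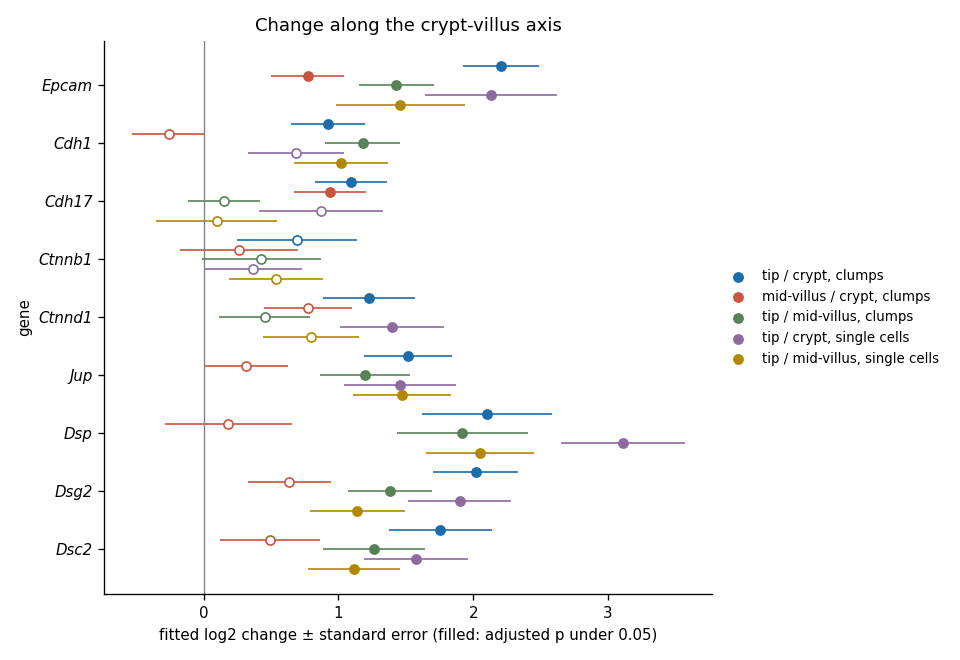
Fitted log2 change ± SE (x axis) of each gene (y axis) between zones, for clumps of 5 mice and for enterocyte-like single cells of 4 mice. Filled points had an adjusted p under 0.05. Between crypt and mid-villus in clumps only Epcam and Cdh17 are filled, and Cdh1 is the only gene there to the left of 0.

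The scale matters for the counts in these comparisons. All genes tested had a median log2 change from crypt to tip of -0.07 with TMM factors, of -0.40 with DESeq2's size factors and of -0.46 with total UMIs, and 45.1%, 33.5% and 30.6% of the called genes were then higher at the tip. The members that rose from crypt to tip numbered 7 with either of the other scalings, without Cdh1, and 4 in pairs alone (Dsc2, Dsg2, Epcam and Dsp). From crypt to mid-villus the median over all genes was 0.06, -0.26 and -0.10, the called genes were higher in 47.5%, 29.5% and 36.4%, and the members called numbered 2, 0 and 1. There the fit with mouse as a block called 5 (Dsc2, Cdh17, Ctnnd1, Dsg2 and Epcam), and leaving out mouse 2 called 0. DESeq2's test called 1, as did leaving out clumps rich in secretory markers, so Cdh17 or Epcam lost its call in each. From mid-villus to tip the members called numbered 6, 6 and 3, with 43.7%, 44.3% and 26.0% of called genes higher, and 3 without mouse 2 (Cdh1, Dsg2 and Epcam). Pairs alone called 1 there, so Cdh1 or Dsp also lost its call in pairs. With no filter on low counts 3 were called, so besides Jup and Dsc2 a further member lost its call. The first and the third of these comparisons share the tip sums, the first and the second share the crypt sums, and the second and the third share the mid-villus sums.

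The neighbours of these genes in the same structures were read from 5 lists of 68 adhesion genes, 62 of which were in the clump table. From crypt to tip, 34 of them were tested, 24 rose and 1 fell, where 24.5% of all genes rose and 29.9% fell, with a median log2 change of 1.31. Of 14 classical junction partners 10 rose and 1 fell, of 9 hemidesmosome and basal adhesion genes 8 rose, of 8 partners and proteases of EpCAM 4 rose, and of 3 other desmosome and plaque genes 2 rose. None of the 3 receptors of E-cadherin on lymphocytes passed the filter on low counts. The largest rises were those of Lamb3, a laminin chain of the basement membrane (4.22), Cdhr2, a protocadherin that links microvilli (3.63), and Plec, which ties keratin to hemidesmosomes (3.32). Actn1, an actin cross-linker, fell by 2.65 on the log2 scale. With total UMIs 20 rose and 1 fell.

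From crypt to mid-villus 12 of the 34 rose, led by the microvillar protocadherins Cdhr2 (2.62) and Cdhr5 (2.18), and 3 fell, where 20.2% of all genes tested rose and 22.3% fell. The 3 that fell were Actn1 (-2.57), Prss8 (-2.09) and Lama3 (-1.53), so Prss8 and Lama3 fell over the lower villus before the rise given next. From mid-villus to tip 12 rose and none of the 34 fell, led by the laminin chains Lamb3 (3.67) and Lama3 (3.39) and by Prss8 (2.95), a membrane-bound protease of epithelia, where 6.44% of all genes rose and 8.3% fell. With total UMIs the counts were 9 and 3, and 9 and 0.

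Enterocyte-like single cells gave the axis without attached neighbours. Cells were clustered without the members, and 2528 of the 5199 cells kept carried enterocyte markers (692, 558, 590 and 688 in mice 1 to 4). The same landmark genes, mostly of ribosomal proteins for the crypt, called 357 of them crypt, 752 mid-villus and 1419 tip. The crypt sum of mouse 1 held only 5 cells and 9847 UMIs. The 10 immune markers summed to 406 to 3241 CPM in crypt sums, 11.0 to 178 in mid-villus sums and 6.48 to 204 in tip sums, and their part in the results was not tested. From mid-villus to tip the same number of members rose as in clumps, 6 of 9, and they were the same genes (Dsp, Jup, Epcam, Dsg2, Dsc2 and Cdh1), where 15.3% of all genes tested were higher. From crypt to tip 6 of 9 rose (Dsp, Epcam, Dsg2, Dsc2, Jup and Ctnnd1), where 31.2% of all genes did.

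Dsp had the largest fitted change of the members in single cells. It stood at 0, 28.0, 32.3 and 75.9 CPM in crypt sums, at 76.8, 94.2, 32.3 and 98.4 in mid-villus sums and at 130, 229, 110 and 286 in tip sums. Every tip value lay above every crypt and mid-villus value, although the 0 of mouse 1 allows up to 305 CPM. The fitted log2 change of Dsp was 3.11 ± 0.46 from crypt to tip (adjusted p = 4.81e-07) and 2.05 ± 0.40 from mid-villus to tip (adjusted p = 0.000326).

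In the same cells Epcam stood at 305, 498, 565 and 654 CPM in crypt sums (the first from 3 UMIs), at 580, 614, 501 and 854 in mid-villus sums and at 844, 1204, 718 and 1480 in tip sums. Its tip level exceeded its mid-villus level in all 4 mice, with a ratio of means of 1.67 in CPM. The fitted log2 change of Epcam was 1.46 ± 0.48 with TMM factors (adjusted p = 0.0198) and 0.74 with total UMIs, where it did not pass (adjusted p = 0.0556), nor did it without mouse 2, 3 or 4. Cdh17 stood at 335, 396, 330 and 458 in the mid-villus and at 174, 289, 224 and 299 at the tip, lower in all 4 mice on the scale of total UMIs, but its fitted change was 0.10 ± 0.45 with TMM factors (adjusted p = 0.887). Cdh1 was lowest in the mid-villus in all 4 mice, as in the clumps, at 90.8, 92.6, 91.9 and 131 CPM against 95.4, 134, 102 and 169 at the tip. By CPM its tip level lay below its crypt level in 3 of 4 mice, with a ratio of means of 0.627. In the clumps the tip lay above the crypt in 4 of 5 mice, with a ratio of 1.49.

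In single cells the scale moved the counts of members called. The median log2 change of all genes from mid-villus to tip was -0.02 with TMM factors, 0.17 with DESeq2's size factors and -0.76 with total UMIs, 49.7%, 62.5% and 8.71% of called genes were higher, and with total UMIs only Dsp still passed among the members (1.34, adjusted p = 0.00785). From crypt to tip the medians were 0.22, 0.68 and -0.83, the shares 53.1%, 66.4% and 18.4%, and the members called 6, 9 and 2 (with total UMIs, Dsp and Epcam). With total UMIs the fitted changes of Cdh1, Cdh17 and Ctnnb1 from crypt to tip had the opposite sign, -0.47, -0.25 and -0.72. None of the 3 passed on either scale in these fits, which did not pair the zones of a mouse. With mouse as a block more members were called from crypt to tip, some of these 3 among them, by the counts given below. Without mouse 2 the mid-villus to tip count was 1, without mouse 3 or without mouse 4 it was 2, and without mouse 1 it was 7. Of the 30 adhesion genes of the 5 lists tested, 11 rose from mid-villus to tip and 21 rose from crypt to tip, where Tspan8 alone fell (-1.20), and with total UMIs 4 rose and 2 fell, and 9 rose and 4 fell. Of all genes tested, 15.3% rose and 15.5% fell in the first comparison, and 31.2% rose and 27.5% fell in the second.

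Clump size was asked of the crypt and the mid-villus, where both pairs and larger clumps were deep enough. No member was called in the crypt or in the mid-villus, where edgeR called 0 of 6941 and 0 of 5034 genes (0.0% in both), with 167 and 116 genes at an unadjusted p under 0.05 and no gene called with DESeq2's size factors. Epcam in crypt pairs stood at 578, 522, 751, 441 and 245 CPM in mice 1 to 5, the last from 9 UMIs, and in larger crypt clumps of mice 1, 4 and 5 at 529, 865 and 539. In mouse 1 the larger clumps were lower and in mice 4 and 5 higher, and the fitted log2 difference of larger clumps from pairs was 0.38 with a 95% interval of -0.35 to 1.11. Over the 9 members the fitted differences ran from -0.20 (Dsp) to 0.40 (Cdh1) in the crypt and from -0.57 (Dsp) to 0.42 (Ctnnd1) in the mid-villus. Their intervals reached from -1.20 to 1.11 in the crypt and from -1.59 to 1.27 in the mid-villus, so differences of that size were not detectable here. These fits set 3 mice with larger clumps against 5 with pairs. With mouse as a block edgeR called 26 genes in the crypt and 3 in the mid-villus, and no member was among them, but signs turned for 4 members in the crypt (Jup, Ctnnb1, Dsc2 and Dsp) and for 5 in the mid-villus (the same and Dsg2). Dsp then stood at 0.28 and 0.49, Dsc2 at 0.39 and 0.35 and Ctnnb1 at 0.73 and 0.32, and by CPM the level of each in larger crypt clumps lay above that in crypt pairs of the same mouse, in 3 of 3 mice. No direction is read for these genes.

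Cell types were compared with enterocyte-like cells within the single-cell table. Besides the 2528 enterocyte-like cells there were 1702 immune-like, 248 enteroendocrine-like, 212 goblet-like, 187 tuft-like, 143 plasma-like and 179 unnamed cells, the last led by Dnase1l3, Apol7c, Apoe and Lyz2. Sums by mouse were compared, and in this table Jup had too few counts to be tested. Cell type and gate were tied in part. In mouse 2, CD24 plates gave 682 of 695 immune-like and 187 of 218 enteroendocrine-like cells, but 24 enterocyte-like ones. Epcam plates gave 489 enterocyte-like and 0 immune-like cells. In mouse 3, onlyEpcam plates held both types (366 enterocyte-like and 697 immune-like). The part of plate and gate in these comparisons was not tested. The immune-like sum of mouse 1, from 29 cells, held only 1864 CPM of immune markers against a median of 43254 over the 4 mice, and erythroid markers reached 297478 in the immune-like sums, so the results of that comparison are given with and without mouse 1.

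**Figure D3:**
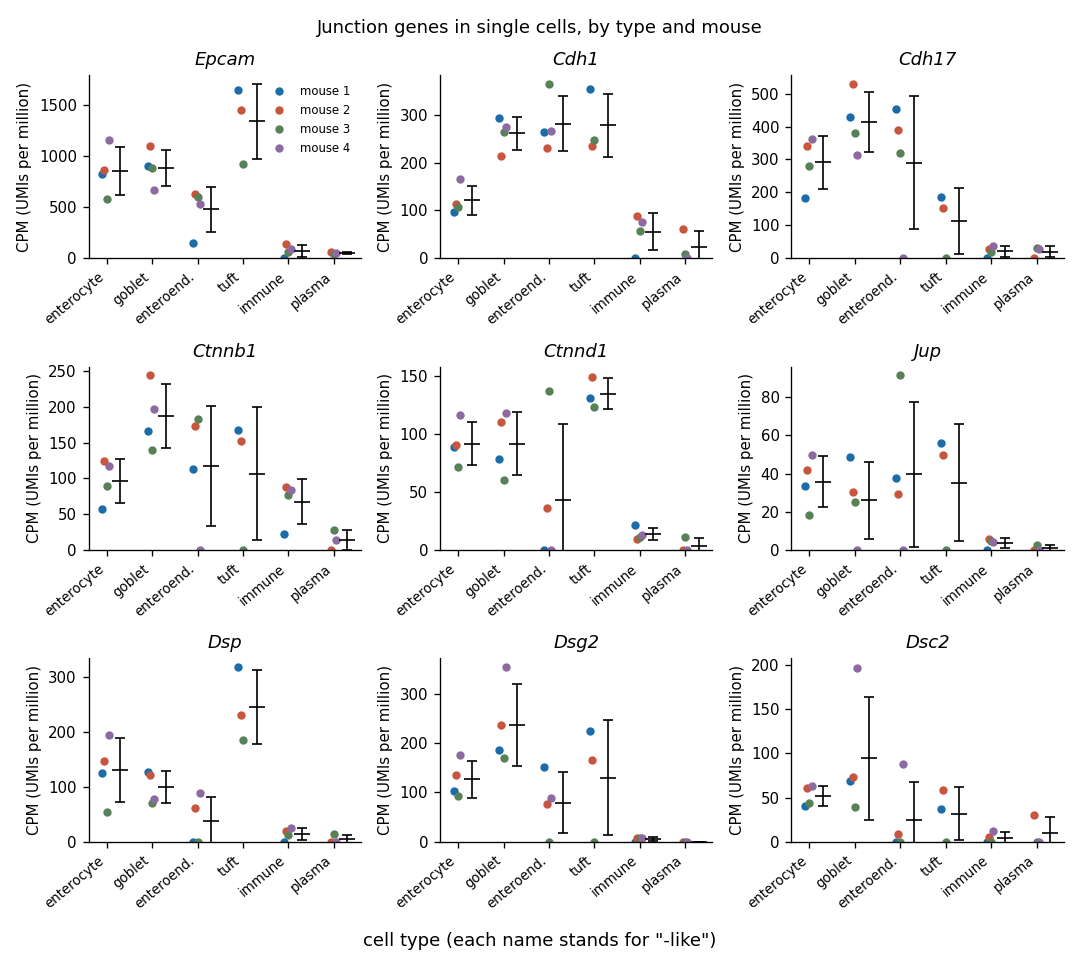
CPM (y axis) of each gene by cell type and mouse in single cells (x axis, where each name stands for a cluster like that type), one panel per gene with its own y axis from 0. Points are mice, and black bars are the mean ± SD over 4 mice (3 for tuft-like and plasma-like cells). The mean of Epcam on this scale of total UMIs is highest in tuft-like cells of 3 mice, although the lowest of these, 925, lies inside the enterocyte-like range, and with TMM factors the fitted change of tuft-like cells was -0.97. Epcam lies below 140 in every immune-like sum.

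Epcam stood at 825, 865, 578 and 1155 CPM in enterocyte-like cells of mice 1 to 4, at 898, 1098, 878 and 669 in goblet-like cells, at 151, 630, 594 and 531 in enteroendocrine-like cells and at 1643, 1446 and 925 in tuft-like cells of mice 1 to 3. Tuft-like cells were above enterocyte-like cells in 3 of 3 mice on this scale, by a ratio of means of 1.77, although the fitted change was -0.97 ± 0.64 with TMM factors (adjusted p = 0.305) and 0.66 with total UMIs (adjusted p = 0.425). Between enterocyte-like and goblet-like cells the values overlapped, so these neighbours in the order did not differ beyond their spread. Enteroendocrine-like and enterocyte-like values of Epcam overlapped only through the lowest enterocyte-like value.

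Cdh1 had another order, with enterocyte-like cells at the bottom of the epithelial types. It stood at 96.0, 114, 108 and 166 CPM in enterocyte-like cells, at 293, 214, 264 and 276 in goblet-like cells, at 264, 232, 366 and 266 in enteroendocrine-like cells and at 355, 234 and 247 in tuft-like cells. On this scale Cdh1 was higher than in enterocyte-like cells in 4 of 4, 4 of 4 and 3 of 3 mice, with no overlap. The ratios of means were 2.16, 2.33 and 2.63. None of the 3 passed the test across all genes, with total UMIs (fitted log2 change 1.10, 1.19 and 1.20, adjusted p = 0.169, 0.0926 and 0.119) or with TMM factors, where the changes were 0.05, -0.63 and -0.38 (adjusted p = 0.968, 0.402 and 0.685).

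Enteroendocrine-like cells, which release hormones, had less of 6 members in the fit with TMM factors, the desmosome genes among them. Dsp was at 0, 60.8, 0 and 88.5 CPM in the 4 mice against 126, 147, 54.1 and 194 in enterocyte-like cells, and Dsc2 was at 0, 9.01, 0 and 88.5 against 40.6, 60.9, 43.7 and 62.7. Each 88.5 stands for a single UMI in the 8 cells of mouse 4, and the zeros of mice 1 and 3, from 11 cells each, allow up to 113 and 137 CPM (3 UMIs of the sum). The 6 of 8 members called lower were Dsc2 -3.76 ± 0.80, Dsp -3.15 ± 0.68, Ctnnd1 -2.84 ± 0.63, Epcam -2.68 ± 0.63, Dsg2 -2.35 ± 0.62 and Cdh17 -1.52 ± 0.60 (fitted log2 change ± SE), where 22.9% of all genes tested were lower. The median over all genes was -0.35 with TMM factors and 1.13 with total UMIs, the share of called genes that were higher was 31.1% and 83.1%, and with total UMIs only Dsc2 was still lower (-2.28, adjusted p = 0.0418), while Cdh17 turned to 0.12. With mouse as a block 7 of 8 were lower, and without mouse 2 the count was 3.

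Tuft-like cells, chemosensory cells of the epithelium, differed in Cdh17. It stood at 187, 152 and 0 CPM against 183, 341 and 279 in enterocyte-like cells of the same mice, and the 0, from 6 cells, allows up to 185 CPM. With TMM factors the change of Cdh17 was -2.53 ± 0.70 (adjusted p = 0.00486), the only one called among 8 members, where 15.8% of all genes were lower. With total UMIs it was -1.13 (adjusted p = 0.215), and the median over all genes moved from -0.43 to 0.91 and the share of called genes that were higher from 35.7% to 79.4%. With mouse as a block 3 members were lower, Dsg2, Dsc2 and Cdh17, and without mouse 2 or without mouse 3 none was. Dsp, at 317, 231 and 185 in tuft-like cells, was above the enterocyte-like value of each of the 3 mice on the scale of total UMIs (fitted changes -0.68 with TMM factors, adjusted p = 0.476, and 0.95 with total UMIs, adjusted p = 0.189).

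In goblet-like cells, which secrete mucus, none of 8 members was called, where edgeR called 17.3% of all genes lower and put 1368 genes at an unadjusted p under 0.05; DESeq2's size factors also called none. The share of called genes that were higher was 26.1% with TMM factors and 64.2% with total UMIs, and the median over all genes -0.56 and 0.36. With mouse as a block 2 members were lower, Dsp (-1.27, adjusted p = 0.0229) and Ctnnd1 (-1.12, adjusted p = 0.043). Dsg2 stood at 185, 238, 170 and 354 CPM in goblet-like cells and at 102, 136, 92.1 and 176 in enterocyte-like cells, higher in each mouse on that scale, with fitted changes of -0.28 with TMM factors (adjusted p = 0.769) and 0.83 with total UMIs (adjusted p = 0.288).

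Of the 32 adhesion genes tested from the 5 lists, 4 were higher and 6 lower in goblet-like cells, 5 and 16 in enteroendocrine-like cells and 2 and 10 in tuft-like cells, and with total UMIs 4 and 0, 6 and 6, and 9 and 2. Of all genes tested, 6.09% were higher and 17.3% lower in goblet-like cells, so that the lower count there was near the share over all genes. The shares were 10.3% and 22.9% in enteroendocrine-like and 8.76% and 15.8% in tuft-like cells. Actn1, an actin cross-linker, was higher in all 3 (3.78, 3.40 and 3.26 with TMM factors). Cdhr2 was lowest against enterocyte-like cells in goblet-like cells (-2.79), Itgb4 in enteroendocrine-like cells (-8.47) and Lama3 in tuft-like cells (-5.40).

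Immune-like cells had little of most members. Epcam stood at 0 (which allows up to 65.0), 135, 65.1 and 88.7 CPM, below every enterocyte-like value, and Dsg2 at 0, 8.34, 7.94 and 8.45 against 92.1 to 176. All 8 members tested were lower, from -5.94 for Dsg2 to -2.31 for Ctnnb1 on the fitted log2 scale, where 39.0% of all genes were lower. With total UMIs the median over all genes moved from -0.57 to 1.29, the share of called genes that were higher from 31.9% to 77.5%, and 6 members were lower, from -3.98 for Dsg2 to -2.92 for Dsp. Cdh1 (-0.94, adjusted p = 0.119) and Ctnnb1 (-0.38, adjusted p = 0.507) then no longer passed. Without mouse 1 all 9 members could be tested, all 9 were lower with TMM factors and 7 with total UMIs, again without Cdh1 (-0.81, adjusted p = 0.0962) and Ctnnb1 (-0.41, adjusted p = 0.392).

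The remainder was not the same for every gene. In mice 1 to 4 the immune-like level of Ctnnb1 was 38.3%, 71.3%, 85.9% and 71.9% of the enterocyte-like level, from 1, 74, 48 and 20 UMIs. For Cdh1 it was 0%, 77.2%, 53.0% and 45.9%, from 0, 74, 36 and 18 UMIs. Both genes were lower in immune-like cells in each of mice 2 to 4, and the sum of mouse 1, with 2 UMIs of the 9 genes, is too shallow to tell. As a ratio of the means of the 4 mice the level was 70.0% for Ctnnb1, 45.8% for Cdh1 and 4.88% to 15.0% for the other 7 genes, and without mouse 1 it was 75.4%, 57.1% and 6.12% to 14.5%. Of the UMIs of the 9 genes in immune-like cells of mice 2 to 4, Ctnnb1 took 22.8%, 30.2% and 24.1% (6.45%, 6.66% and 4.90% in enterocyte-like cells) and Cdh1 took 22.8%, 22.6% and 21.7% (5.95%, 8.08% and 6.90%). Whether these UMIs came from the immune-like cells themselves, from background RNA or from doublets was not tested. As general background, β-catenin is used by most cells, and lymphocytes of the epithelium dock on E-cadherin with the integrin αEβ7. Its subunit genes Itgae (5.64) and Itgb7 (4.16) were among 3 genes of the 5 adhesion lists that were higher in immune-like cells, with 25 of 32 lower (7 and 18 with total UMIs), where 18.3% of all genes tested were higher and 39.0% lower. Without mouse 1, Itgae stood at 5.65 and Itgb7 at 4.10, and 3 of 37 genes of these lists were higher and 29 lower (6 and 20 with total UMIs).

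**Figure D4:**
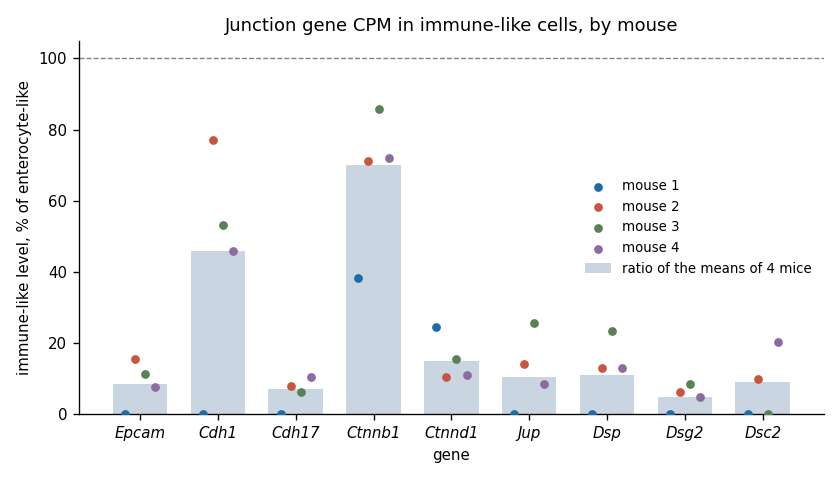
Level of each gene (x axis) in immune-like single cells as a percentage of its level in enterocyte-like cells of the same mouse (y axis). Points are mice 1 to 4, bars are the ratio of the means of the 4 mice, and the dashed line marks equal levels. Every point lies below the line, and the bars of Ctnnb1 (70.0%) and Cdh1 (45.8%) stand above those of the other 7 genes.

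Shares of cells with a UMI were also counted. Epcam had a UMI in 72.9% of enterocyte-like cells (median depth 2839 UMIs), in 71.7% of goblet-like, 55.2% of enteroendocrine-like and 79.1% of tuft-like cells, and in 7.87% of immune-like cells (median depth 861.5 UMIs). With each cell thinned to 500 UMIs, which left out 328 immune-like and 46 enterocyte-like cells, the shares of cells with Epcam were 32.6%, 35.4%, 21.7%, 43.6% and 3.71%. Pooled over mice, the thinned shares of Cdh1 were 5.48% in enterocyte-like, 10.7% in goblet-like, 12.5% in enteroendocrine-like and 8.38% in tuft-like cells, against 3.35% in immune-like cells (24.4%, 41.0%, 34.7%, 34.8% and 6.58% before thinning). For Ctnnb1 they were 4.03% in enterocyte-like and 5.02% in immune-like cells (21.4% and 7.64% before thinning), and since this order goes against the CPM of mice 2 to 4, none is read from it. For Dsg2 they were 5.84% and 0.291% (26.1% and 0.705% before thinning).

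The sort gates were compared plate by plate within a mouse, so these p-values cover the spread between plates of 1 mouse number and not between mice. The plates of differing gates held differing cells. Of 1080 cells on CD24 plates 63.1% were immune-like and 2.22% enterocyte-like, and of 573 cells on Epcam plates 0 were immune-like, which allows a share of up to 0.524%, and 85.3% enterocyte-like. In mouse 2, the 5 plates labelled CD24 had less of all 8 members tested than the 6 plates labelled Epcam, where 32.4% of all genes tested were lower. Epcam ran from 291 to 631 CPM on CD24 plates (median 446) and from 785 to 1045 on Epcam plates (median 887), with no overlap. Cdh17 ran from 96.9 to 150 (median 124) and from 265 to 577 (median 363), also with no overlap. The fitted log2 change was -1.75 ± 0.29 for Epcam (adjusted p = 2.19e-05), -2.41 ± 0.22 for Cdh17 (adjusted p = 8.81e-09) and -0.68 ± 0.21 for Cdh1 (adjusted p = 0.00707), the smallest of the 8.

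With total UMIs 6 members were lower, Cdh1 turned to 0.09 and Ctnnb1 stood at -0.26, and the median over all genes moved from 0.11 to 0.93 and the share of called genes that were higher from 54.3% to 74.7%. Among enterocyte-like cells alone 7 of 8 members were lower, where 34.5% of 1623 genes tested were, but only 2 CD24 plates then held enough cells, 6 and 9, and the median over all genes was -1.61.

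In mouse 3 the 3 plates labelled CD45Epcam had more of 7 of 8 members than the 7 plates labelled onlyEpcam, where 18.3% of all genes tested were higher. Epcam ran from 464 to 620 CPM against 249 to 468, and Dsg2 from 84.0 to 88.6 against 38.9 to 83.5. The plates overlapped at their edges for Epcam and not for Dsg2. The fitted changes ran from 0.73 (Cdh1) to 1.33 (Ctnnd1), and Ctnnb1, at 0.49, did not pass (adjusted p = 0.137). Immune-like cells made up 4.35% of the 276 cells on CD45Epcam plates and 55.3% of the 1260 cells on onlyEpcam plates. Among enterocyte-like cells alone 0 of 8 members were called, with 2 of 1534 genes called (0.13%), and 5 of the 7 changes had the opposite sign, Epcam at -0.23. With total UMIs only Ctnnd1 still passed (0.90, adjusted p = 0.0304), and the share of called genes that were higher moved from 48.1% to 13.0%.

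In mouse 4 no member was called between the 3 plates labelled CD54Epcam and the 7 labelled onlyEpcam, where edgeR called 7.79% of the 2258 genes tested. Epcam ran from 1056 to 1229 CPM and from 825 to 1087, and the fitted change was 0.03 ± 0.19 (adjusted p = 0.952), with a 95% interval of -0.34 to 0.39. Cdh17 came nearest, from 327 to 552 against 214 to 372 (0.45 ± 0.19, adjusted p = 0.158). Immune-like cells made up 7.36% of 258 and 31.2% of 802 cells, and among enterocyte-like cells alone 0 of 8 members were called, where 3.07% of all genes were. The share of called genes that were higher was 46.0% with TMM factors and 70.5% with total UMIs, and the median over all genes -0.02 and 0.21.

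**Figure D5:**
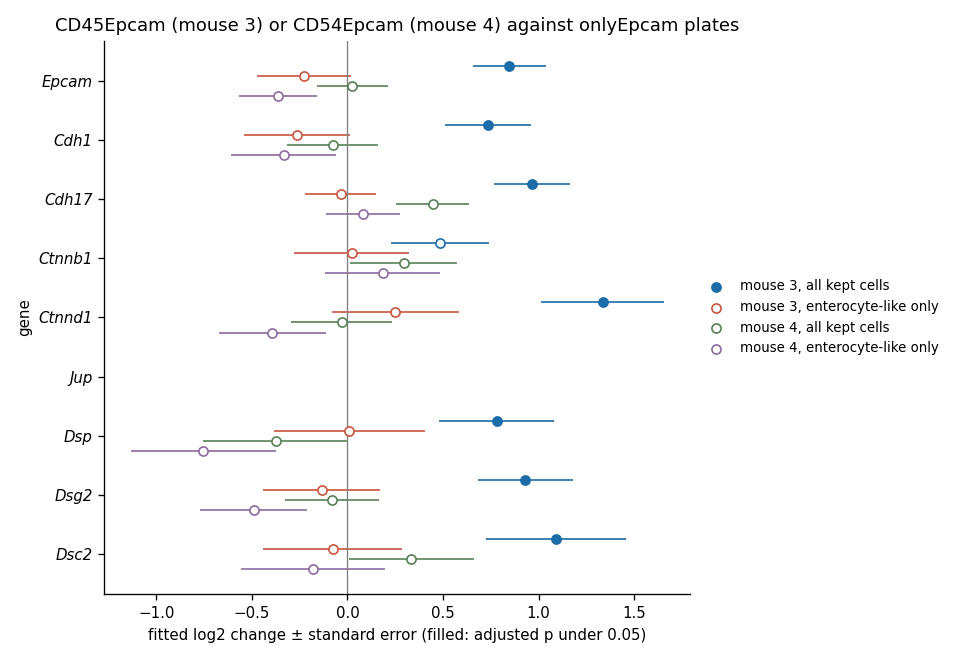
Fitted log2 change ± SE (x axis) of each gene (y axis) of CD45Epcam (mouse 3) or CD54Epcam (mouse 4) plates from onlyEpcam plates, on all kept cells and on enterocyte-like cells alone. Filled points had an adjusted p under 0.05, and Jup has no points because it was not tested. For mouse 3 on all kept cells every point lies right of 0 and all but Ctnnb1 are filled, and no point of the other series is filled.

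The other adhesion genes were read on the same plates. On CD24 plates Itgae (9.20) and Itgb7 (7.44) led 5 genes that were higher, with 20 of 28 lower, such as Pvrl3, a nectin (-3.19), and Itgb4, the integrin of hemidesmosomes (-3.16), where 38.4% of all genes tested were higher and 32.4% lower. On CD45Epcam plates Itgb7 (-5.07), Itgae (-4.64) and Cd44 (-1.86) were lower, and 12 of 25 were higher, led by Perp, a desmosome protein of the membrane (1.23), where 18.3% of all genes were higher and 19.7% lower. On CD54Epcam plates 1 of 22 was lower, Itgae (-3.99), where 3.59% of all genes were higher and 4.21% lower. With total UMIs the counts higher and lower were 5 and 12, 0 and 3, and 1 and 1.

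Finally, each member was set beside the 2449 genes with a mean of at least 50 CPM across the 15 clump sums (3 zones of 5 mice), which share their mice and their depth. By Pearson's r of log values, given as a description, the closest to Epcam were Sertad1 (0.958), Zcchc6 (0.957) and Sqstm1 (0.954), and the closest to Dsg2 was Abhd2 (0.952), itself a landmark of zonation. The closest gene was Ets2 for Cdh1, Slc39a4 for Cdh17, Eif4a2 for Ctnnb1, Cystm1 for Ctnnd1, Prkcsh for Jup, Eif6 for Dsp and Slc9a2 for Dsc2. Among the members the closest pairs were Epcam and Dsg2 (0.882), Dsg2 and Dsc2 (0.872) and Ctnnb1 and Dsp (0.797). The least alike were Ctnnb1 and Ctnnd1 (-0.352), the catenins that bind at different points of the same E-cadherin tail.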

How the data were processed

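Clumps and single cells were sequenced by MARS-seq, and UMI counts, whole numbers per gene and well, were deposited (38454111 UMIs in 17162 clump wells, 39137313 in 16850 cell wells). Per the labels, bcl2fastq 2.15.0.4 and GRCm38 were used. The study subtracted a background read from empty wells; these wells are not named in the files, and none was subtracted here. Members and lists were chosen with earlier results of these data known. Clumps needed at least 200 genes, more than 500 UMIs and at most 30% mitochondrial UMIs, and the 2% lowest in landmark share were left out. Kept cells had between 200 and 7000 UMIs, between 150 and 1500 genes and a mitochondrial share of at most 40%. A zone was the landmark list whose indicator correlated best with the clump's landmark shares. Cells were clustered in scanpy 1.11.5 (2000 variable genes, members and adhesion lists left out, 25 components, 20 neighbors, Leiden 0.1), and a cluster was named when at least 3 fixed markers stood among its 50 leading genes. No doublet caller was run. The same 384 well barcodes recur across plates (all of them on 37 of 45 clump and 40 of 44 cell plates), and 0 kept wells were identical.

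Counts were summed by mouse and zone, size or type (at least 5 wells), or by plate for gates, and tested with edgeR 4.0.16 in R 4.3.3 (TMM factors, low genes filtered, quasi-likelihood test, Benjamini-Hochberg over all genes, threshold 0.05). DESeq2 1.42.0 was an alternative. Landmark genes were left out of counts of genes tested or called. CPM values are scaled by total UMIs, an SE is the fitted log2 change over the square root of F, and intervals are 95%. Samples with one mouse number in the labels were taken as one animal, although plates of single-cell mouse 2 carry 2 ages, so that number may not stand for 1 animal. Deviations of a mouse's zones from the zone means correlated at 0.319 to 0.735 in clumps, at -0.0761 to 0.688 in single-cell zones and at -0.0865 to 0.672 in cell types. Members and wider genes were named by role. The 5 lists were classical junction partners, desmosome and plaque, hemidesmosome and basal adhesion, EpCAM partners and proteases, and E-cadherin receptors of lymphocytes, with up to 3 genes named per direction.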

Additional observations from a re-analysis of the deposited data

Results flagged for a closer look

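Of 189 groups of 4 to 7 samples, 14 held a value far from the others, where chance alone gives about 1 in 20. In clumps, Epcam in the mid-villus of mouse 3 stood at 1370 CPM (next 919), Ctnnd1 at the tip of mouse 5 at 430 (33 UMIs, next 237), and Ctnnd1 in mid-villus pairs of mouse 5 at 378 (6 UMIs, next 201). Among cell types, Dsc2 in enteroendocrine-like cells of mouse 4 stood at 88.5 (1 UMI, next 9.01), and Dsg2 in immune-like cells of mouse 1 at 0 where the others ran from 7.94 to 8.45. That sum held 46148 UMIs from 29 cells, too few to tell the 0 from the other values. In mid-villus enterocyte-like cells of mouse 4, Cdh1 stood at 131 (next 92.6) and Jup at 48.4 (next 21.0).

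On single plates of mouse 2 labelled Epcam, Ctnnd1 stood at 170 on plate 8 (15 UMIs, next 108), or 182 among enterocyte-like cells alone (next 109), and Jup at 51.5 on plate 7 (next 38.1). On plates of mouse 3 labelled onlyEpcam, Epcam was lowest at 249 on plate 10 (next 388). Ctnnd1 there stood at 79.9 on plate 8 (next 44.5), or 117 among enterocyte-like cells (next 73.4), and Epcam at 868 among enterocyte-like cells of plate 7.

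A further 278 clumps of mouse 6, sorted above 2n and used in no comparison, held 1899 CPM of the 9 members together (2362 of 1243705 UMIs). Epcam took 679 there, Cdh17 477, Cdh1 182, Ctnnd1 143, Ctnnb1 137, Dsg2 115, Dsp 62.7, Dsc2 55.5 and Jup 47.4.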

How the results depend on the processing

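Of 1465 values under another setting, 1322 kept their side of the threshold (97 of them, called in neither setting, with the opposite sign), 111 no longer passed, 25 newly passed and 7 with a call changed sign; the cause was not tested. Counts of members called that moved by over 1.5 times were as follows. From crypt to tip in clumps, pairs alone gave 4. From crypt to mid-villus, DESeq2's size factors gave 0, pairs alone 0, no filter on low counts 1, total UMIs 1, DESeq2's test 1, clumps without secretory markers 1 and clumps thinned to 500 UMIs 4. From mid-villus to tip, no filter gave 3, total UMIs 3 and pairs alone 1. Naming cells by the highest marker sum gave 1 in goblet-like and 2 in tuft-like cells, and without the plates of 4 months tuft-like cells gave 2. Total UMIs gave 1 in enteroendocrine-like and 0 in tuft-like cells, 1 in single cells from mid-villus to tip, 2 from crypt to tip and 1 for CD45Epcam; no filter gave 2 from mid-villus to tip. CD45Epcam in enterocyte-like cells alone gave 0, with Epcam at -0.23, Cdh1 at -0.26, Cdh17 at -0.035, Dsg2 at -0.13 and Dsc2 at -0.077. With total UMIs, Cdh17 in enteroendocrine-like cells was 0.12 and Cdh1 on CD24 plates 0.086.

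Leaving out 1 mouse or plate at a time gave 8 to 8 members from crypt to tip, 0 to 3 from crypt to mid-villus (0 without mouse 2) and 3 to 6 from mid-villus to tip in clumps, 0 to 0 for size, 0 to 0 in goblet-like, 3 to 6 in enteroendocrine-like, 0 to 1 in tuft-like and 7 to 9 in immune-like cells. It gave 1 to 7 and 6 to 8 in single-cell zones, 8 to 9 for CD24, 5 to 7 for CD45Epcam and 0 to 0 for CD54Epcam.

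With mouse as a block the counts became 5 from crypt to mid-villus, 2 in goblet-like and 3 in tuft-like cells, and moved by less elsewhere: 9 and 8 from crypt to tip in clumps and single cells, 6 and 7 from mid-villus to tip, 7 in enteroendocrine-like and 8 in immune-like cells, and 0 for size. Gates were compared within 1 mouse, and no paired analysis was possible there because plates carry no shared number.

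Over all genes, calls from mid-villus to tip in clumps numbered 1030, and 2112 with the block, 595 with no filter, 496 in pairs and 277 after thinning. From crypt to tip they numbered 3796, and 2371 in pairs and 1355 after thinning; from crypt to mid-villus 2968, and 1490 and 1167. For size, no filter called 40 and 9 genes in place of 0, the block 26 and 3, and leaving out secretory clumps 1 in the crypt. Naming by marker sum moved goblet-like calls from 974 to 1650, enteroendocrine-like from 1385 to 2434, tuft-like from 1023 to 1814 and immune-like from 2387 to 4071, and no filter moved the last 3 to 2960, 1894 and 5810. No filter also moved single-cell calls from crypt to tip from 2550 to 4194 and CD24 calls from 2033 to 5530. Among enterocyte-like cells alone, calls fell from 2033 to 682 for CD24, from 1305 to 2 for CD45Epcam and from 176 to 53 for CD54Epcam.

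Leaving out 1 mouse moved calls over all genes from mid-villus to tip in clumps to 368, 357 and 372 (without mice 1, 2 and 3), from crypt to mid-villus to 1863 (mouse 3), in goblet-like cells to between 323 and 612 (mice 2, 3 or 4), in enteroendocrine-like cells to 396 and 882 and in tuft-like cells to 262 and 680 (mice 2 and 3), in immune-like cells to 1021 (mouse 2), and from mid-villus to tip in single cells from 1341 to 686, 728 and 709 (mice 2, 3 and 4). For size it called 1 gene in the crypt (mouse 2) and 7 and 1 in the mid-villus (mice 4 and 5). For CD54Epcam, calls were 74, 81 and 0 without CD54Epcam plates 1, 2 and 3, and 113, 101 and 95 without onlyEpcam plates 5, 6 and 9.

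Sums of few cells, such as the crypt sum of 5 single cells in mouse 1 and the enteroendocrine-like sum of 8 cells in mouse 4, are shallow, and 1 UMI moves a rare member there by a large step.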
